A study of Mus musculus with 16 samples.

Results

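The genes examined here encode 52 enzymes and core subunits that add or remove acetyl and methyl groups on histones or methyl groups on DNA. They were taken by name from the GENCODE mouse M21 annotation of GRCm38, in which all 52 were found among 21938 protein-coding genes. By role they comprised 10 acetyltransferases, 9 zinc-dependent deacetylases, 6 sirtuins, 4 genes of Polycomb repressive complex 2 (PRC2), 9 other methyltransferases, 8 demethylases and 6 genes of DNA methylation. Open chromatin at these genes had been measured by ATAC-seq, in which a transposase cuts accessible DNA and inserts sequencing adapters. The 16 libraries fell into 4 groups of 4, namely wild-type (WT) effector T cells (TE), TPdh-/- TE, WT memory T cells (TM) and TPdh-/- TM. Per the study's methods, TPdh-/- mice carried floxed Pdha1 and CD4-Cre, a recombinase expressed in T cells, so that the E1 alpha subunit of the pyruvate dehydrogenase complex was deleted in T cells. Young adult mice of both sexes were used. The methods describe OT-I cells, which carry a transgenic receptor for ovalbumin, stimulated by their peptide and then kept in IL-2 for TE or IL-15 for TM. The labels give only genotype, cell type and a sample number, and do not tell whether samples came from separate mice. Spread between libraries may therefore be technical.

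Histone acetyltransferases transfer the acetyl group of acetyl-CoA, the product of the pyruvate dehydrogenase complex, to lysines of histone tails, and deacetylases remove it. Zinc-dependent deacetylases hydrolyse the bond, while sirtuins consume NAD+. Histone and DNA methyltransferases use S-adenosylmethionine, and the jumonji demethylases and TET enzymes depend on alpha-ketoglutarate. In CD8+ T cells such enzymes are known to shape the choice between effector and memory fates. What was compared here was whether chromatin at the genes for these enzymes was open, which is not a measure of their expression or activity.

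Each library was available as a list of peaks, from 2290 to 86637 per library. Background coverage, the lowest local background in a library in fragments per base, served as the measure of depth and was 0.636 to 1.55 in WT TE, 0.173 to 0.419 in TPdh-/- TE, 0.354 to 0.572 in WT TM and 0.186 to 0.261 in TPdh-/- TM. The smallest summit pileup of any peak was 3 fragments in each TPdh-/- TM library and 9 fragments in 2 WT TE libraries, so that the level a peak had to reach differed between the groups. Genotype and depth cannot be told apart in either cell type. Pdha1 itself held a start peak in 3 TPdh-/- TM, 1 WT TM, 1 TPdh-/- TE and 1 WT TE libraries, and peaks cannot tell if an exon was lost. Of 8 T cell markers (Cd3d, Cd3e, Cd3g, Cd8a, Cd8b1, Lck, Cd5 and Cd6), 0 to 5 per library had a start peak. Only Cd8a and Cd8b1 of this CD8+ list encode CD8, and the others are general T cell genes. Of all pairs of gene and library in the list, 23.4% had a start peak. The share was 9.38% for 2 CD4+ T cell markers, 5% for 5 B cell markers, 8.75% for 5 myeloid markers and 8.33% for 3 NK cell markers. Of the NK cell markers (Ncr1, Klrb1c and Eomes) only Eomes, a gene not limited to NK cells, held start peaks. They were in 2 WT TE, 1 TPdh-/- TE and 1 TPdh-/- TM libraries. All protein-coding genes had a start peak in 15.3% to 28.3% of cases by group, so the CD8+ share was near that of all genes. With peaks in the gene or its flanks the shares were 46.9% for CD8+, 50% for CD4+, 41.3% for B cell, 46.3% for myeloid and 35.4% for NK cell markers, which does not set the labelled cell type apart.

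A start peak was a peak whose summit lay within 1000 bp of any annotated transcription start of a gene. Start peaks were found at 17 ± 5.23 of the 52 enzyme genes in WT TE, 17.8 ± 9.91 in TPdh-/- TE, 14.5 ± 10.6 in WT TM and 28 ± 4.32 in TPdh-/- TM (SD, n = 4 each). Per library the numbers were 16, 21, 10 and 21 in WT TE replicates 1 to 4, 8, 11, 23 and 29 in TPdh-/- TE, 18, 6, 6 and 28 in WT TM, and 28, 22, 30 and 32 in TPdh-/- TM. TPdh-/- TM replicates 3 and 4 had the most, but the groups overlapped. TPdh-/- TE replicates 3 and 4 and WT TM replicate 4 lay above TPdh-/- TM replicate 2, and the WT TM libraries were spread widely. As shares these means were 32.7%, 34.1%, 27.9% and 53.8% of the enzyme genes, against 18.7%, 18.8%, 15.3% and 28.3% of all protein-coding genes. The share was higher for the enzyme genes than for all genes in 16 of 16 libraries, with a ratio of 1.25 to 2.59. With peaks of −log10 q-value of at least 5 it was higher in 13 of 16 libraries (ratio 0 to 3.17), and with the 2290 strongest peaks of each library (equal-sized lists) in 11 of 16 (0 to 4.03). Between TPdh-/- TM and WT TM the mean share differed 1.93-fold for the enzyme genes and 1.85-fold for all genes. These ratios were 1.11 and 1.64 in the equal-sized lists.

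**Figure D1:**
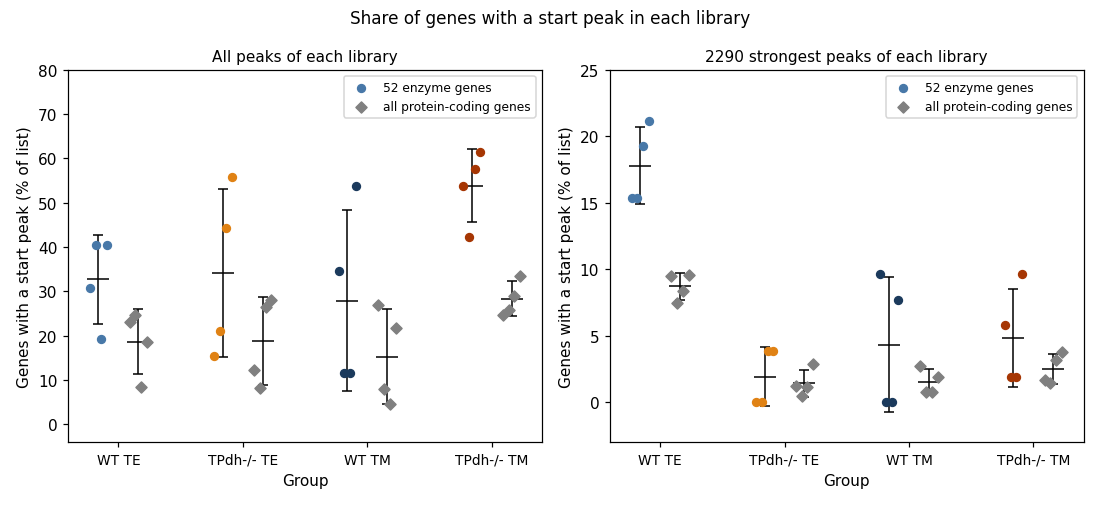
Percentage of the 52 enzyme genes (coloured circles) and of all 21938 protein-coding genes (grey diamonds) with a start peak in each library, by group, with the mean and SD of 4 libraries. On the left, with all peaks, TPdh-/- TM libraries lie between 42.3% and 61.5% of the enzyme genes and overlap with TPdh-/- TE (up to 55.8%) and WT TM (up to 53.8%). On the right, with the 2290 strongest peaks of each library, WT TE is highest.

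When each library was reduced to its 2290 peaks of highest −log10 q-value, the order of the groups changed. WT TE then had start peaks at 9.25 ± 1.5 enzyme genes, TPdh-/- TE at 1 ± 1.15, WT TM at 2.25 ± 2.63 and TPdh-/- TM at 2.5 ± 1.91 (SD, n = 4 each). The 4 WT TE libraries (8 to 11 genes) lay above the 4 TPdh-/- TE libraries (0 to 2 genes) without overlap, and all genes moved in the same way, at 8.71% in WT TE and 1.40% in TPdh-/- TE. In TM the genotypes overlapped, with 0 to 5 genes in WT and 1 to 5 in TPdh-/-. Background coverage was also highest in the WT TE libraries, and its part in the difference was not tested. Outside WT TE the 2 did not always go together. WT TM replicate 3 had a coverage of 0.572 and 0 genes, and TPdh-/- TM replicate 4 had 0.186 and 5 genes.

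**Figure D2:**
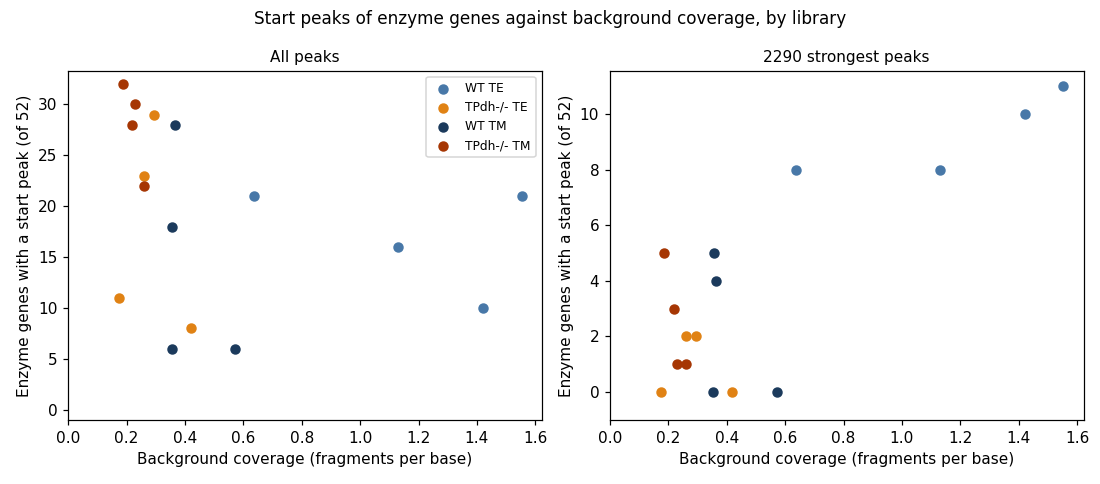
Number of the 52 enzyme genes with a start peak (vertical axis) against the background coverage of the library in fragments per base (horizontal axis), 1 point per library, coloured by group. With all peaks (left) the 2 libraries of lowest coverage differ widely, with 11 genes in TPdh-/- TE replicate 2 and 32 in TPdh-/- TM replicate 4, and with the 2290 strongest peaks (right) the 4 WT TE libraries stand apart at high coverage and 8 to 11 genes.

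Across the 16 libraries the enzyme genes had a start peak in a median of 5.5 libraries, and all protein-coding genes in a median of 2. Of the 52, 3 had none (Dot1l, Kdm5b and Kdm6b), 15 had one in 1 to 4 libraries, 24 in 5 to 8 and 10 in 9 to 13, and no enzyme gene was held by all 16. Genes with a start peak in 0 libraries made up 26.5% of all protein-coding genes. The most widely held starts were those of Hdac2 (13 libraries), Kdm4a, Kdm4b and Ep300 (12 each), and Kat6b, Hdac4 and Ezh2 (11 each). Summits lay a median of 190 bp from the start and 67.5% of them were upstream of it, against 152 bp and 59.4% for all protein-coding genes. By group the median distance of the enzyme genes' summits was 104 bp in WT TE, 193 bp in TPdh-/- TE, 192 bp in WT TM and 234 bp in TPdh-/- TM.

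**Figure D3:**
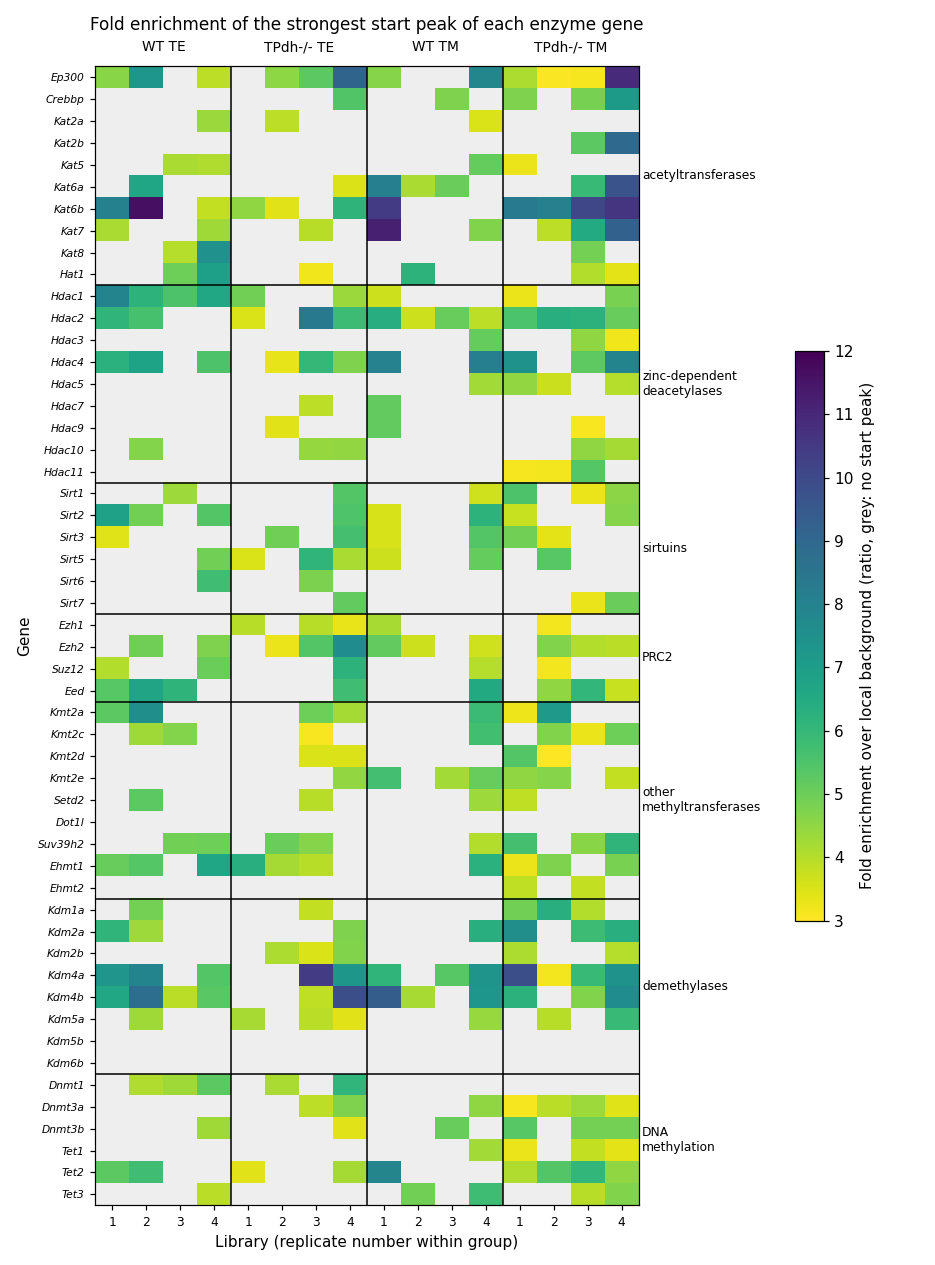
Fold enrichment over local background of the strongest start peak of each of the 52 enzyme genes (rows, grouped by role) in each of the 16 libraries (columns, replicates 1 to 4 of each group), with grey where a library had no start peak. Rows such as Hdac2, Kdm4a and Kdm4b are filled in 12 or 13 libraries, and those of Dot1l, Kdm5b and Kdm6b are empty.

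The sequence upstream of the start was available from RefSeq (GRCm38.p6) for 43 of the 52 genes. In 1 window a gene, the first listed, from 250 bases before to 50 bases after a start, the median CpG content, observed over expected, was 0.825 against 0.598 over 16517 protein-coding genes, and 88.4% against 49.9% reached 0.6. Among all genes with a value of at least 0.6 the mean number of libraries with a start peak was 5.10, against 6.03 for the 38 enzyme genes at that level. Below 0.6 the mean was 1.71 libraries over all genes and 4.6 over 5 enzyme genes. The letters GGGCGG, bound by SP family factors, occurred on either strand in 67.4% of the windows and 48.0% of all windows, CCAAT in 39.5% and 38.7%, and TATAAA in 2.33% and 12.9%. With the window nearest the most shared start region of each enzyme gene instead, a choice made after seeing the data, 37 of 43 (86.0%) reached 0.6, the mean was 6.08 libraries for these and 4.5 for the other 6, TATAAA was in 0%, and the shares with GGGCGG and CCAAT were 67.4% and 39.5%. The upstream sequences of 5 genes whose start regions were held by several libraries follow, 5′ to 3′ on the strand of the gene and without annotated exons, which shortens that of Dnmt1. They come from widely held start regions (Hdac2, Kdm4a and Hdac4, in 13, 12 and 10 libraries) and from start regions discussed between groups (Tet2, Dnmt1). Not every summit lay inside the stretch shown, and capitals mark GGGCGG and CCAAT on either strand.
Hdac2 (chr10:36974294-36974543, plus strand): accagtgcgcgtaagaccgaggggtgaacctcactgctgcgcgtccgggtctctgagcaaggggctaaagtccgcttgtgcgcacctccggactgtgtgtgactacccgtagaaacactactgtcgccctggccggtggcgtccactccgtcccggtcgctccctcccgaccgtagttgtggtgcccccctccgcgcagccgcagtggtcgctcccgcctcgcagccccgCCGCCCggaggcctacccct
Kdm4a (chr4:118180044-118180293, minus strand): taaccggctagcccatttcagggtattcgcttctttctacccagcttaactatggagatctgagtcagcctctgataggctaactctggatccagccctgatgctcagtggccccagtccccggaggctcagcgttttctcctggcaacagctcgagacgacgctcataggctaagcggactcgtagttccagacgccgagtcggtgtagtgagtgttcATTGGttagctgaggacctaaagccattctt
Hdac4 (chr1:92180342-92180591, minus strand): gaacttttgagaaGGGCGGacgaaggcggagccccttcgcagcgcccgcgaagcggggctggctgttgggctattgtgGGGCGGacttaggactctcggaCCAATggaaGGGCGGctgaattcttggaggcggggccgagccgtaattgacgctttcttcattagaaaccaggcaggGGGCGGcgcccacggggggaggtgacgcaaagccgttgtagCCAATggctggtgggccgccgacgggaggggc
Tet2 (chr3:133544391-133544640, minus strand): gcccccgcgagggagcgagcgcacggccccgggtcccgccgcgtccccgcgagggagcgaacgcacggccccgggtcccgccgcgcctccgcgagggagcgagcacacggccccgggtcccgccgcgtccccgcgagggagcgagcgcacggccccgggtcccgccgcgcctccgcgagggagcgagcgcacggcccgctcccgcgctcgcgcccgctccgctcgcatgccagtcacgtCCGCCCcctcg
Dnmt1 (chr9:20952624-20952707, minus strand): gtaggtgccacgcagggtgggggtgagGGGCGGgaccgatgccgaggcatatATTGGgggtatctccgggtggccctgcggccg

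Among the acetyltransferases, Ep300 and Crebbp encode the paralogous coactivators p300 and CBP, which acetylate histone H3 at enhancers. Ep300 had a start peak in 4 TPdh-/- TM, 2 WT TM, 3 TPdh-/- TE and 3 WT TE libraries, 11 of the 12 in 1 region (chr15:81584698-81585715) upstream of the gene. The fold enrichment of its strongest start peak was 4.59, 7.26 and 3.90 in WT TE replicates 1, 2 and 4, and 4.53, 5.28 and 9.10 in TPdh-/- TE replicates 2, 3 and 4. It was 4.62 and 7.86 in WT TM replicates 1 and 4, and 4.10, 3.05, 3.12 and 10.9 in TPdh-/- TM replicates 1 to 4. The peaks of 3.90 and 4.10 lay outside the shared region, at chr15:81586070-81586271 and chr15:81626446-81626568. The groups overlapped, and TPdh-/- TM held both the lowest values and the highest. The shared region also lay within 156 bp of the start of 1110025M09Rik, a gene model on the same stretch, and the 2 starts cannot be told apart here. Crebbp had a start peak in 3 TPdh-/- TM, 1 WT TM, 1 TPdh-/- TE and 0 WT TE libraries.

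Over the 10 acetyltransferases, 40% of pairs of gene and library had a start peak in WT TE, 27.5% in TPdh-/- TE, 30% in WT TM and 55% in TPdh-/- TM. Kat6b, which encodes the MORF acetyltransferase of histone H3, gave the strongest start peaks of the list by median fold enrichment among those in 11 or more libraries. Values were 8.05, 11.6 and 3.84 in WT TE replicates 1, 2 and 4, 4.50, 3.41 and 6.15 in TPdh-/- TE replicates 1, 2 and 4, 10.4 in WT TM replicate 1, and 8.29, 8.09, 10.1 and 10.6 in TPdh-/- TM replicates 1 to 4. All 4 TPdh-/- TM values lay above all 3 values of TPdh-/- TE, while 1 WT TM library reached the TPdh-/- TM range and the other 3 had no start peak. Of these peaks, 10 libraries shared the region chr14:21500380-21501281 in an intron, 196 bp from an annotated start. Kat6b was also among the 2 genes most often in the equal-sized lists, in 7 libraries (4 TPdh-/- TM, 1 WT TM, 0 TPdh-/- TE and 2 WT TE). Its close relative Kat6a had start peaks in 7 libraries and the H4 acetyltransferase Kat7 in 8. The remaining 5 were held less often, with Hat1, which acetylates newly made histone H4, in 6 libraries, Kat5 in 4, Kat2a and Kat8 in 3 each and Kat2b in 2.

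Of the zinc-dependent deacetylases, Hdac2, a class I enzyme of the NuRD, Sin3 and CoREST complexes, had start peaks in 13 libraries at 1 region (chr10:36974008-36975051). Fold enrichment was 6.10 and 5.61 in WT TE replicates 1 and 2, 3.52, 8.34 and 5.84 in TPdh-/- TE replicates 1, 3 and 4, 6.38, 3.69, 5.09 and 3.89 in WT TM, and 5.55, 6.32, 6.20 and 5.09 in TPdh-/- TM. It was the one enzyme gene held by all 8 TM libraries, and its WT and TPdh-/- TM values overlapped. Hdac1, the paralog of Hdac2, had the opposite distribution over cell types in WT. Its fold enrichment was 7.93, 6.16, 5.51 and 6.61 in WT TE replicates 1 to 4, 4.91 and 4.34 in TPdh-/- TE replicates 1 and 4, 3.69 in WT TM replicate 1, and 3.26 and 4.82 in TPdh-/- TM replicates 1 and 4. All WT TE folds lay above the 5 others. The groups overlapped in the ratio of summit pileup to the background coverage of the library, which was 16.8, 18.9, 13.4 and 12.9 in WT TE, 16.7 and 20.4 in TPdh-/- TE, 11.3 in WT TM, and 13.7 and 26.8 in TPdh-/- TM.

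The class IIa deacetylase gene Hdac4 had start peaks in 11 libraries, 10 of them in chr1:92180175-92180984. Values were 6.26, 6.77 and 5.52 in WT TE replicates 1, 2 and 4, 3.34, 6.01 and 4.74 in TPdh-/- TE replicates 2, 3 and 4, 7.99 and 8.12 in WT TM replicates 1 and 4, and 7.37, 5.22 and 7.95 in TPdh-/- TM replicates 1, 3 and 4. By fold enrichment the 2 WT TM values were the highest, whereas by pileup over background coverage they (39.4 and 33.0) lay within or below those of TPdh-/- TM (41.0, 34.8 and 64.4). Hdac3, the catalytic subunit of the NCoR complexes, had start peaks in 3 libraries, 1 WT TM (replicate 4, 5.13) and 2 TPdh-/- TM (replicates 3 and 4, 4.50 and 3.19), each at a region of its own. Hdac10 was held in 5 libraries, Hdac5 in 4, Hdac9 and Hdac11 in 3 each and Hdac7 in 2. Over the 9 genes the shares were 27.8%, 33.3%, 30.6% and 55.6% in the same order of groups.

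The sirtuins remove acetyl or other acyl groups from histones and other proteins, and Sirt3 and Sirt5 act mainly in mitochondria. Sirt2 had a start peak in 8 libraries, Sirt3 and Sirt5 in 7, Sirt1 in 6, Sirt7 in 3 and Sirt6 in 2. The main Sirt2 region lay 61 bp from the start of Nfkbib and that of Sirt3 lay 153 bp from the start of Psmd13, so these starts are shared with a neighbour. For Sirt1, the nuclear deacetylase, fold enrichment was 4.30 in WT TE replicate 3, 5.41 in TPdh-/- TE replicate 4, 3.67 in WT TM replicate 4, and 5.52, 3.25 and 4.58 in TPdh-/- TM replicates 1, 3 and 4. Over the 6 genes the shares were 29.2%, 37.5%, 29.2% and 41.7%. No sirtuin differed by 3 or more libraries between groups at its start.

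PRC2 places the repressive trimethyl mark on lysine 27 of histone H3 through Ezh2 or Ezh1, with Suz12 and Eed as core subunits. Ezh2 had start peaks in 11 libraries, with fold enrichments of 4.95 and 4.74 in WT TE replicates 2 and 4, 3.25, 5.42 and 7.61 in TPdh-/- TE replicates 2, 3 and 4, 5.17, 3.69 and 3.66 in WT TM replicates 1, 2 and 4, and 4.72, 4.03 and 3.92 in TPdh-/- TM replicates 2, 3 and 4. These values overlapped in each comparison, and 7 of the 11 libraries shared the region chr6:47595062-47595511. Eed was held in 8 libraries, and Ezh1 and Suz12 in 5 each. Shares over the 4 genes were 43.8%, 50%, 37.5% and 50%. Kdm6b, which encodes the demethylase JMJD3 that removes this mark, had no start peak in any library. A peak in the body of Kdm6b or its flanks was seen in 6 libraries.

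Among the other methyltransferases, Ehmt1, which with Ehmt2 methylates lysine 9 of histone H3, had start peaks in 10 libraries and Ehmt2 in 2, both TPdh-/- TM. Suv39h2, which trimethylates the same lysine, was held in 8 libraries, all in chr2:3474034-3475897. Its fold enrichment was 4.9 and 5 in WT TE replicates 3 and 4, 5.04 and 4.62 in TPdh-/- TE replicates 2 and 3, 4.03 in WT TM replicate 4, and 5.65, 4.59 and 6.11 in TPdh-/- TM replicates 1, 3 and 4. These values lay within a narrow range and the groups overlapped or had a single value. The H3 lysine 4 methyltransferase genes Kmt2a and Kmt2c and the related Kmt2e were each held in 7 libraries, Kmt2d in 4, and Setd2, the lysine 36 trimethylase, in 4. Dot1l, the lysine 79 methyltransferase, had no start peak. Shares over these 9 genes were 27.8%, 33.3%, 22.2% and 52.8%.

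Of the demethylases, Kdm4a and Kdm4b, jumonji enzymes that act on trimethylated lysine 9, were each held at 1 start region in 12 libraries. For Kdm4a (chr4:118179083-118180450) fold enrichment was 7.30, 7.93 and 5.40 in WT TE replicates 1, 2 and 4, 10.4 and 7.24 in TPdh-/- TE replicates 3 and 4, 6.11, 5.33 and 7.33 in WT TM replicates 1, 3 and 4, and 9.83, 3.17, 5.94 and 7.39 in TPdh-/- TM. For Kdm4b (chr17:56325342-56326426) it was 6.59, 8.74, 3.94 and 5.29 in WT TE, 3.85 and 9.84 in TPdh-/- TE replicates 3 and 4, 9.35, 4.17 and 7.27 in WT TM replicates 1, 2 and 4, and 6.22, 4.72 and 7.64 in TPdh-/- TM replicates 1, 3 and 4. Values of both genes overlapped between all groups. Kdm2a and Kdm5a had start peaks in 7 libraries, and Kdm1a (LSD1) and Kdm2b in 5. Shares over the 8 demethylases were 34.4%, 37.5%, 25% and 53.1%.

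In DNA methylation, Tet2, a dioxygenase that oxidises 5-methylcytosine, had start peaks in 9 libraries and in all 4 of TPdh-/- TM. Fold enrichment was 5.26 and 5.77 in WT TE replicates 1 and 2, 3.39 and 4.21 in TPdh-/- TE replicates 1 and 4, 7.92 in WT TM replicate 1, and 4.08, 5.42, 6.05 and 4.50 in TPdh-/- TM. The single WT TM value was above all 4 TPdh-/- TM values. The de novo methyltransferase gene Dnmt3a had start peaks in 0 WT TE libraries, 2 of TPdh-/- TE (replicates 3 and 4, 3.89 and 4.74), 1 of WT TM (replicate 4, 4.49) and 4 of TPdh-/- TM (3.14, 3.95, 4.33 and 3.45). They were weak, with 3 to 7 fragments at the summit, and lay at 9 regions of which the most shared was seen in 3 libraries. Dnmt1, the maintenance methyltransferase, had the reverse distribution, with 4.07, 4.30 and 5.25 in WT TE replicates 2, 3 and 4, 4.14 and 6.08 in TPdh-/- TE replicates 2 and 4, and no start peak in any of the 8 TM libraries. Dnmt3b was held in 6 libraries, Tet3 in 5 and Tet1 in 4. Shares over the 6 genes were 29.2%, 29.2%, 25% and 66.7%.

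**Figure D4:**
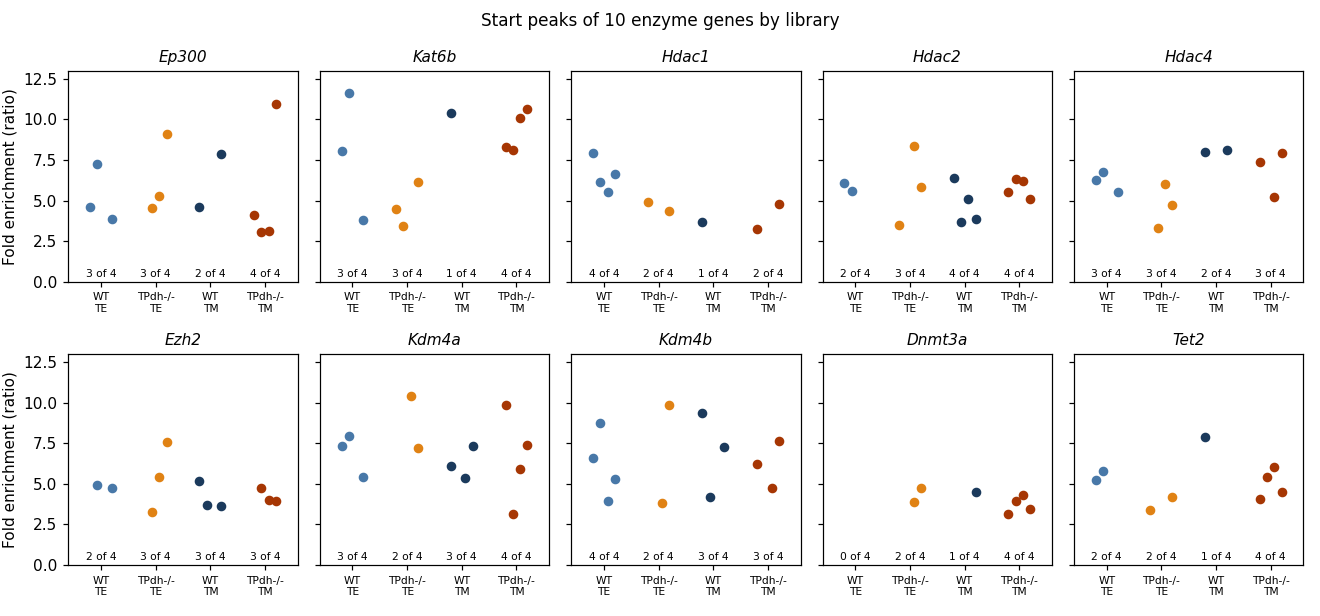
Fold enrichment over local background (ratio, vertical axis from 0) of the strongest start peak of 10 enzyme genes, 1 point per library with such a peak, by group, with the number of libraries that had one printed under the points. Hdac1 peaks are present in 4 of 4 WT TE libraries, with the highest folds but not the highest ratios of pileup to background coverage, and Dnmt3a and Tet2 peaks are present in 4 of 4 TPdh-/- TM libraries.

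TPdh-/- TM were compared with WT TM to ask whether loss of the complex changed openness at these genes in memory cells. By Fisher's exact test of libraries with and without a start peak, 0 of the 52 differed at an unadjusted p under 0.05, where 0.556% of all genes were called with more TPdh-/- and 0.00456% with more WT libraries. With 4 libraries a group only 4 against 0 gives that result (two-sided exact p = 0.0286), and no gene could pass adjustment over all genes (lowest adjusted p = 1). A difference of at least 3 libraries was seen at 5 enzyme genes, all with more TPdh-/- libraries, against 4.59% of all genes. These were Dnmt3a and Tet2 (4 TPdh-/- and 1 WT library each), Kat6b (4 and 1), and Kdm1a and Hdac11 (3 and 0 each). Kat6b and Tet2 each had 1 start region held by 4 TPdh-/- and 1 WT libraries. The Hdac11 start peaks lay at 3 regions of 1 library each. Those of Kdm1a lay at 5 regions over all groups, none held by more than 1 TPdh-/- TM library. No enzyme gene had 3 or more additional WT libraries, as had 0.137% of all genes. Of the 52, Kat6b alone differed by 3 or more in equal-sized lists by −log10 q-value or by fold enrichment, or at a −log10 q-value of at least 5 (32, 35 and 167 of 21938 genes either way). In all, 31 enzyme genes had more TPdh-/- libraries, 4 had more WT libraries and 17 had equal numbers (59.6% and 7.69%, against 42.8% and 10.9% of all genes).

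In TE, 0 enzyme genes were called at the start by Fisher's exact test (0.0684% of all genes with more TPdh-/- and 0.21% with more WT libraries). Ezh1 and Kdm2b had peaks in 3 TPdh-/- and 0 WT libraries (0.871% of all genes differed by 3 or more in this direction), and none had 3 or more additional WT libraries (2.1%). With all peaks 15 enzyme genes had more TPdh-/- and 14 more WT libraries (28.8% and 26.9%, against 24.5% and 20.6% of all genes). In the equal-sized lists the direction turned, with 0 enzyme genes in favour of TPdh-/- and 3 in favour of WT (Hdac1, Hdac4 and Kdm4b), where 624 of 21938 genes differed by 3 or more either way. For Kdm2b, which binds unmethylated CpG, start peaks of all libraries lay at 9 separate regions of 1 library each. The most shared start region of Ezh1 was held by 2 TPdh-/- TE and 1 WT TM libraries.

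Between WT TM and WT TE, 0 enzyme genes were called (0.00912% of all genes with more TM and 0.269% with more TE libraries). Kmt2e had peaks in 3 WT TM and 0 WT TE libraries (0.333%), while Dnmt1 (3 WT TE and 0 WT TM) and Hdac1 (4 and 1) went the other way (2.62%). The main Hdac1 start region, chr4:129542461-129543141, had its median summit 51 bp from the start and was held by 2 TPdh-/- TM, 0 WT TM, 2 TPdh-/- TE and 4 WT TE libraries. It was the one start region of the list held by 4 libraries of a group and 0 of the group compared, and 0.155% of all regions at a start were so divided. In the genotype comparison in TM 0.164% of start regions were held by 4 TPdh-/- and 0 WT libraries, none of them of the enzyme genes. The WT TM peak counted for Hdac1 lay outside that region, and with peaks of −log10 q-value of at least 5, a window of 500 bp or starts of protein-coding transcripts only, Hdac1 was called (4 against 0, exact p = 0.0286, unadjusted), among 42, 66 and 62 of 21938 genes.

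Between TPdh-/- TM and TPdh-/- TE, 0 enzyme genes were called at the start (0.397% of all genes with more TM and 0.0182% with more TE libraries). Hdac11, Hdac5 and Tet1 had start peaks in 3 TM and 0 TE libraries (3.82%), and none differed by 3 the other way (0.419%). No start region of Hdac11 or Tet1 was held by more than 1 TPdh-/- TM library, and the most shared of Hdac5 was held by 2. In the equal-sized lists Kat6b was called, with 4 TM and 0 TE libraries (exact p = 0.0286, unadjusted), as 1 of 6 among 21938 genes.

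When peaks anywhere in a gene body or its flanks of 5000 bp were counted, the enzyme genes had a peak in 4 to 15 libraries. The median was 11 libraries, against 7 for all protein-coding genes. Gene length, 5.39 kb at Hdac10 and 870 kb at Hdac9, was not adjusted for. In TE, Crebbp, Kdm5b and Tet1 were called, each in 4 TPdh-/- and 0 WT libraries (exact p = 0.0286, unadjusted, lowest adjusted p over all genes = 0.89). That was 3 of 52, or 5.77%, against 3.13% of all genes, and none was called with more WT libraries (0.0501%). Crebbp and Tet1 were also called between WT TM and WT TE (4 against 0, 3.85% against 1.15% of all genes, with 0 enzyme genes and 0.0593% of all genes the other way), a comparison that shares the WT TE libraries. Hdac3 was called between TPdh-/- TM and TPdh-/- TE (4 against 0, 1.92% against 0.428%). In TM, 0 enzyme genes were called between the genotypes (1.14% of all genes with more TPdh-/- and 0.0137% with more WT libraries), with the largest differences at Eed, Ehmt2 and Hdac5 (4, 3 and 4 TPdh-/- against 1, 0 and 1 WT libraries). These were the 3 enzyme genes with at least 3 more TPdh-/- libraries (8.69% of all genes), and 0 had as many more WT libraries (0.191%). By equal-sized lists none of these was among the genes that differed by 3 or more, which were Hdac4, Hdac7 and Kat6b (2 with more TPdh-/- and 1 with more WT libraries, 102 of 21938 genes either way). In TE 8 enzyme genes differed by 3 or more in favour of TPdh-/-, the called ones with Ezh1, Kat6a, Kdm2b, Kmt2d and Setd2, or 15.4% against 15.3% of all genes. Hdac3 alone went the other way (3 WT and 0 TPdh-/- libraries, 0.757%). In the equal-sized lists it was 0 for TPdh-/- and 4 for WT (Hdac1, Hdac3, Hdac4 and Kdm4b, with 809 of 21938 genes either way). Between WT TM and WT TE 6 did so in favour of TM (Crebbp, Ezh1, Hdac7, Kdm2b, Kdm5b and Tet1, 7.17% of all genes) and 0 in favour of TE (1.26%). This too turned in the equal-sized lists, with 0 for TM and 2 for TE (Hdac1 and Hdac3, 796 of 21938 genes either way), and at a −log10 q-value of at least 5, with 0 for TM and 1 for TE (Hdac1, 503 genes). Between TPdh-/- TM and TPdh-/- TE it was Ehmt2 and Hdac3 for TM (4.09%) and Kat2a for TE (0.784%). None of the called genes was called in the equal-sized lists.

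Few of these peaks lay at one shared site. Peaks of Kdm5b, a demethylase of trimethylated lysine 4, fell in 26 distinct regions of which the most shared was held by 2 libraries. Those of Tet1 fell in 34 regions (at most 3 libraries at 1 region) and those of Crebbp in 31 (at most 5, at a start). The Hdac3 peaks fell in 9 regions, and the most shared, held by 2 TPdh-/- TM, 1 WT TM, 0 TPdh-/- TE and 3 WT TE libraries, was near the start of another gene. Over all 52 genes the most shared region was held by 1 to 3 libraries in 19, by 4 to 7 in 20 and by 8 or more in 13. Of 163 start regions 69.3% were held by 1 library, against 72.1% of all regions at a start.

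**Figure D5:**
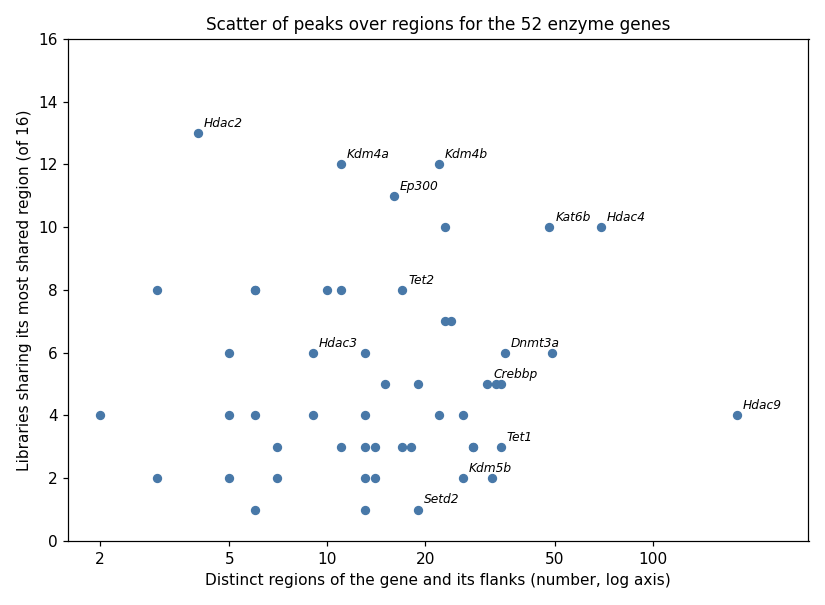
For each of the 52 enzyme genes, the number of distinct regions formed by merging overlapping peaks of the 16 libraries in the gene and its flanks (horizontal axis, log scale) against the number of libraries that share the most shared of them (vertical axis, of 16). Hdac2 combines 4 regions with 13 libraries, whereas Kdm5b, Tet1 and Setd2 have 19 to 34 regions, none of them shared by more than 3 libraries.

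Away from every annotated start the enzyme genes held 883 regions, of which 719 were in introns, 71 in exons, 42 in the upstream and 51 in the downstream flank. A single library held 88.1% of them, as for all such regions (88.2%), and 8 were held by 4 or more libraries. In 6 libraries were an intron of Dnmt3a and one of Hdac7, and in 5 an intron of Kat2b, 2 more sites in introns of Dnmt3a and one of Sirt2. Of those in 5, the Kat2b site and the Dnmt3a site of higher median fold enrichment (5.55 and 4.59) are given by library, while the Dnmt3a site chr12:3834324-3835070 and the Sirt2 site chr7:28781070-28781781 had medians of 3.96 and 3.43. The Dnmt3a intron at chr12:3870697-3871304 had fold enrichments of 4.05 and 6.29 in WT TE replicates 1 and 2, 4.80 in TPdh-/- TE replicate 3, 5.27 in WT TM replicate 1, and 3.14 and 5.70 in TPdh-/- TM replicates 3 and 4. The Hdac7 intron at chr15:97836342-97837113 had 4.84 in TPdh-/- TE replicate 4, 5.30 and 4.37 in WT TM replicates 1 and 2, and 4.92, 3.03 and 11.2 in TPdh-/- TM replicates 1, 2 and 4. It was without a peak in all 4 WT TE libraries.

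The Kat2b intron at chr17:53586858-53588019 was the one region away from starts that separated groups. It was held by all 4 TPdh-/- TM libraries (fold enrichment 5.74, 5.55, 5.64 and 4.22, with 4 to 7 fragments at the summit), 0 WT TM, 0 TPdh-/- TE and 1 WT TE library (replicate 2, 4.28). Of all regions away from a start, 0.00727% were held by 4 TPdh-/- TM and 0 WT TM libraries and 0.00623% by 4 TPdh-/- TM and 0 TPdh-/- TE libraries. Kat2b encodes PCAF, an acetyltransferase of histone H3 lysine 9. It was singled out among 883 regions after the values were seen. The second Dnmt3a intron, chr12:3855804-3856911, had 4.12 and 5.01 in WT TE replicates 1 and 2, 5.38 in TPdh-/- TE replicate 4, and 4.59 and 3.87 in TPdh-/- TM replicates 3 and 4. The 121 bases of GRCm38 centred on the median summit of these 4 regions are shown because they are among the 6 most shared sites of the list outside starts, with GGGCGG and TATAAA on either strand in capitals.
Dnmt3a (chr12:3871069-3871189, plus strand): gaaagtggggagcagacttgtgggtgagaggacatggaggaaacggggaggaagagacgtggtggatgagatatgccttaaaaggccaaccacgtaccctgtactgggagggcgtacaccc
Hdac7 (chr15:97836769-97836889, plus strand): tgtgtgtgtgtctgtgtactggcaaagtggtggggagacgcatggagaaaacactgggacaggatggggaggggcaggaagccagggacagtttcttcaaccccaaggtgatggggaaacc
Kat2b (chr17:53587481-53587601, plus strand): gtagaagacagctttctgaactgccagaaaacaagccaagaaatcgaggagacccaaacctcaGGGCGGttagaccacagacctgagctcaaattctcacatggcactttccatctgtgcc
Dnmt3a (chr12:3856090-3856210, plus strand): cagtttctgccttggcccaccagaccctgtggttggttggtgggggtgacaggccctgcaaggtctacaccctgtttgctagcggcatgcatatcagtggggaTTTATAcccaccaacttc

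Graded signal could be tested only where all 8 libraries of a comparison had a start peak. This left 68 genes between TPdh-/- TM and WT TM, among them Hdac2 as the single enzyme gene, and 35 to 67 genes with no enzyme gene in the other comparisons. On the log2 scale of summit pileup over background coverage, centred per library, Hdac2 differed by -0.08 ± 0.36 (SE, n = 4 and 4, limma, adjusted p = 0.955). The ratio of pileup to background coverage was 22.5, 11.3, 12.2 and 13.7 in WT TM replicates 1 to 4 and 27.3, 26.8, 34.8 and 32.2 in TPdh-/- TM. These uncentred ratios did not overlap between genotypes (log2 difference 1.07, limma, adjusted p = 0.0609). The centring removes the shift common to the genes tested, and the centred difference was smaller than its error and changed sign when WT TM replicate 2 or 3 or TPdh-/- TM replicate 4 was left out, so it gives no direction.

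Over both cell types, a comparison chosen after seeing the data, genotype was permuted within cell type for each gene. Dnmt3a (6 of 8 TPdh-/- and 1 of 8 WT libraries) and Kdm2b (5 and 0) differed at the start by this exact test (p = 0.0306 each, adjusted p = 1), against 0.738% of all genes, and 0 were higher in WT (0.0775%). With gene or flank peaks Kdm5b (8 and 3, p = 0.0143), Crebbp and Tet1 (8 and 4, p = 0.0286 each), and Kmt2d and Setd2 (8 and 3, p = 0.0306 each) did so in the same exact permutation test, 9.62% of the list against 8.29% of all genes, with an adjusted p of 0.462 for each, and 0 were higher in WT (0.0228%). In the equal-sized lists 0 enzyme genes were higher in TPdh-/- by unadjusted p (0.00456% of all genes at the start, 0.0866% in gene or flank). Hdac4 (0 TPdh-/- and 5 WT libraries) and Kdm4b (1 and 6) were then higher in WT at the start (exact permutation p = 0.0306 each, adjusted p = 1, 0.324% of all genes). With gene or flank peaks the same 2 genes were called, Hdac4 in 0 TPdh-/- and 6 WT libraries (exact permutation p = 0.0102) and Kdm4b in 1 and 6 (0.374% of all genes).

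Related enzymes were counted in the same way. Of 28 other enzymes of these families, such as Kdm6a, Setdb1 and Hdac8, start peaks were found at a mean of 9.75 in WT TE, 7.5 in TPdh-/- TE, 8.25 in WT TM and 13.3 in TPdh-/- TM libraries, and at 25 partner subunits and readers at 9.25, 9, 7.25 and 13.3. Genes of these 2 lists had a start peak in a median of 5.5 and 6 libraries. The median was 5.5 for the 52 enzyme genes and 2 for all protein-coding genes, so the higher share was not particular to the 52. In the comparison of TPdh-/- TM with WT TM and of TPdh-/- TE with WT TE, 0 genes of either list were called at the start by Fisher's exact test at an unadjusted p under 0.05. Setdb2, a relative of the lysine 9 methyltransferases, was called between WT TM and WT TE (0 and 4 libraries), and Jmjd1c, of the KDM3 family, between TPdh-/- TM and TPdh-/- TE (4 and 0), both with an exact p of 0.0286 before adjustment. Each was 1 of 28 genes, where 61 and 91 of 21938 genes were called either way in the 2 comparisons.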

How the data were processed

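Per the methods and the labels, the authors trimmed reads with Trimmomatic, aligned them to GRCm38 with BWA 0.7.17, dropped ambiguous and blacklisted alignments, and called peaks per library with MACS2 2.2.7.1 in paired-fragment mode. Whether cut sites were offset, and a control library, are not given in the sources used here. The deposited lists give each peak a score, a fold enrichment (the ratio of summit pileup to local background, 1 added to both), and the −log10 p-value and −log10 q-value. These cover 645567 peaks.

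From fold and −log10 p-value, summit pileup and background were solved; pileups were within 0.05 of a whole number for 100% of peaks. Genes came from GENCODE M21, sequences from RefSeq. The members and lists were chosen with earlier results of these data known. Presence was compared per gene with Fisher's exact test (two-sided), and signal by limma 3.58.1 (R 4.3.3), both over all protein-coding genes and adjusted by Benjamini and Hochberg. SciPy 1.17.1, numpy 2.4.6 and pandas 2.3.3 (Python 3.11.15) were used, and scripts were tested on simulated data. Whether replicate numbers pair libraries is not given by the labels. Deviations of same-numbered libraries correlated at -0.101 to 0.229, above 0.1 in 1 of 16 pairs. Such values cannot tell whether these libraries shared a mouse or a preparation. Named genes were those in the most libraries, 10 genes of interest in CD8+ T cells, those called, and 4 of the most shared regions away from starts, with ties at 5 libraries broken by median fold enrichment. Alternatives were equal-sized lists, a −log10 q-value of at least 5, windows of 500 and 2000 bp, protein-coding transcripts, no flank, no centring, fold enrichment and leaving out each library. The merged regions, the comparison over both cell types and, for genes per library, leaving out each library, lists by fold enrichment and protein-coding transcripts were chosen after seeing the data, as were the promoter windows nearest a region.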

Additional observations from a re-analysis of the deposited data

Results flagged for a closer look

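The number of enzyme genes with a start peak, with a gene or flank peak, and with a start peak in the equal-sized lists was examined in each of the 4 groups, 12 sets of 4 libraries. No library stood apart from the other 3 of its group by Dixon's criterion, which chance would meet in about 1 of 20 sets. At no enzyme gene did all libraries of TPdh-/- TM and of TPdh-/- TE differ from WT in opposite directions.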

How the results depend on the processing

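With each library cut to equal-sized lists by −log10 q-value, enzyme genes with a start peak numbered 9.25 per library in WT TE, 1 in TPdh-/- TE, 2.25 in WT TM and 2.5 in TPdh-/- TM, and by fold enrichment 8.75, 1, 2.25 and 2.5. A −log10 q-value of at least 5 gave 7.5, 3, 4 and 7 in these groups, and starts of protein-coding transcripts gave 23.5 in TPdh-/- TM. Leaving out 1 library gave 15.7 to 19.3, 14 to 21, 10 to 17.3 and 26.7 to 30 in the 4 groups. Start calls, 0 in every comparison, became 1 with a 2000 bp window for genotype in TM (Kmt2d, with 166 of 21938 genes called) and TE (Kdm2b, 83), 1 with a −log10 q-value of at least 5 for genotype in TE and for WT TM against WT TE (Hdac1 in both, in more WT TE libraries, 52 and 42), 1 with a 500 bp window or protein-coding transcripts for WT TM against WT TE (Hdac1, 66 and 62), and 1 in either equal-sized list for TPdh-/- TM against TPdh-/- TE (Kat6b, 6 and 7). Without 1 library they ranged from 0 to 2 for genotype in TM (Hdac11 and Kdm1a without TPdh-/- TM replicate 4, with 207 genes, Kat6b and Tet2 without WT TM replicate 1, 326, Dnmt3a without WT TM replicate 4, 245). They ranged from 0 to 1 for genotype in TE (Kdm2b and Ezh1 without TPdh-/- TE replicates 1 and 2, 128 and 137 genes), WT TM against WT TE (Hdac1 and Kmt2e without WT TM replicates 1 and 2, Dnmt1 without WT TE replicate 1, 196, 95 and 92) and TPdh-/- TM against TPdh-/- TE (Tet1, Hdac5 and Hdac11 without TPdh-/- TM replicates 2, 3 and 4, 223, 180 and 172). With 3 libraries left in 1 group, a peak in every library of a group and none of the other still counts as a call. Gene or flank calls ranged from 0 to 2 for genotype in TM (Ehmt2 without TPdh-/- TM replicate 4, Eed and Hdac5 without WT TM replicate 4, with 434 and 493 genes against 253 in all libraries) and 3 to 7 for genotype in TE (7 without WT TE replicate 2, with 1694 genes against 697). They ranged from 2 to 4 for WT TM against WT TE (4 without WT TE replicate 2, 734 against 266) and 1 to 2 for TPdh-/- TM against TPdh-/- TE (2 without TPdh-/- TM replicate 2 or 4, 185 and 194 against 105). They became 0 in equal-sized lists in the last 3. Without flanks they were 1 (Eed, 182 genes), 1 (Tet1, 242) and 0 (96) for genotype in TM, WT TM against WT TE and TPdh-/- TM against TPdh-/- TE, and with a −log10 q-value of at least 5 they were 1 (Hdac1, in more TE libraries, 65 genes) and 0 (40 genes) in the latter 2. At that −log10 q-value genotype in TE called 2, Hdac9 in more TPdh-/- and Hdac1 in more WT libraries (113 genes), and the 3 calls Crebbp, Kdm5b and Tet1 were lost.

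Replicate numbers shared by groups were not treated as pairs. With the replicate number as block the sign test, whose smallest p is 0.125, called 0 genes at the start or in gene or flank in every comparison, and the Hdac2 signal difference stayed at -0.08. That difference was 1.07 without centring, 0.02 on log2 fold enrichment, and from -0.2 to 0.35 without 1 library, above 0 without WT TM replicate 2 (0.05), WT TM replicate 3 (0.35) or TPdh-/- TM replicate 4 (0.11). Start signal in the other 3 comparisons had no enzyme gene to test with all 8 libraries. With 1 library left out, 1 could be tested in 4 cases and 0 were called. These were Kdm4b for WT TM against WT TE without WT TM replicate 3 (log2 difference 0.02, limma, adjusted p = 0.985), and for TPdh-/- TM against TPdh-/- TE Ep300, Hdac2 and Kat6b without TPdh-/- TE replicates 1, 2 and 3 in turn (-0.91, 0.03 and 0.93, limma, adjusted p = 0.546, 0.984 and 0.426). The causes were not tested. With 4 libraries a group and 3 to 9 fragments needed for a peak, a missing peak does not show closed chromatin.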
